A study of Homo sapiens with 4 samples.

Results

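The contacts described here are those of the neighbouring genes CRYAB, HSPB2 and DIXDC1 on chromosome 11, taken as every anchor pair with an anchor in chr11:111775000-111895000 (hg19). In all, 335 of the 1125468 anchor pairs that held a contact met this rule, with 773 paired-end tags (PETs) over 4 libraries. A PET is a read pair that joins 2 anchors, an anchor being an interval at which the authors' contacts end. The members were chosen by position, and the interval was selected on the measured PETs of these libraries, with the differences between genotypes at this locus known, so those differences are described and not tested.

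A673 is an established Ewing sarcoma line. Contacts bound by SMC1, a core subunit of the cohesin ring, were mapped by HiChIP, which ligates nearby ends of fixed chromatin and then precipitates the fragments with an antibody. The groups were 2 libraries with the genotype Stag2Null, from clones that had each grown from 1 cell after CRISPR/Cas9 editing of STAG2 (called STAG2-null 1 and 2), and 2 libraries with the genotype WT (wild-type 1 and 2). No other treatment is given in the labels, the libraries are not stated to be separate cultures, and whether both STAG2-null libraries came from different clones is not said. Contacts measure no transcript, so neither the loss of STAG2 nor the identity of the line could be checked here.

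STAG2 is one of the alternative subunits through which cohesin holds chromatin, and cohesin extrudes DNA into loops that often stop at sites bound by CTCF. CRYAB encodes alpha B crystallin, a small heat shock protein and chaperone of the lens and of muscle, and HSPB2 encodes a relative of it that lies next to it. DIXDC1 encodes a protein with a DIX domain, the domain by which Dishevelled and Axin assemble in Wnt signalling. In the gene order of RefSeq assembly GRCh38.p14, SIK2, PPP2R1B, ALG9, FDXACB1 and CFAP68 precede the group CRYAB, HSPB2, C11orf52 and DIXDC1, and DLAT, PIH1D2, NKAPD1, TIMM8B and SDHD follow it. The order was used only to say which genes neighbour each other.

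The interval held 11 of the 79850 anchors, and the first 14022 bp of it held none. The authors' deposited table of differential loops places a start of CRYAB and a start of DIXDC1 in the same anchor, chr11:111792793-111799049 (the promoter anchor), so contacts of the 2 genes cannot be told apart there. Which start of either gene is meant is not given, and other starts may lie outside this anchor. HSPB2 has no anchor of its own in that table, which names only the read-through HSPB2-C11orf52 among the genes that the loops span. Distances below run between anchor midpoints from the promoter anchor, and downstream means toward higher coordinates, the direction in which DIXDC1 is transcribed in RefSeq. That table flags H3K27ac, a mark of active promoters and enhancers, at the promoter anchor, and neither CTCF nor FLI1, the DNA-binding part of the fusion factor of Ewing sarcoma. An anchor 6.94 kb downstream (chr11:111801815-111803915, the CTCF anchor) is flagged for CTCF alone, and one 12.3 kb downstream (chr11:111806268-111810162, the H3K27ac anchor) for H3K27ac alone.

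The promoter sequences of DIXDC1 are shown because a start of it lies in the anchor with most contacts of the locus, and because RefSeq lists 3 start sites for it, each with its own promoter. They run from 250 bases before the start to 50 after it, from RefSeq, GRCh38.p14, plus strand of chromosome 11. Capitals mark the letters AGGGGGC, the core of the motif of CTCF, and GGGCGG, the GC box bound by factors of the SP and KLF families, on either strand. No 2 matches overlap.
DIXDC1 start 1: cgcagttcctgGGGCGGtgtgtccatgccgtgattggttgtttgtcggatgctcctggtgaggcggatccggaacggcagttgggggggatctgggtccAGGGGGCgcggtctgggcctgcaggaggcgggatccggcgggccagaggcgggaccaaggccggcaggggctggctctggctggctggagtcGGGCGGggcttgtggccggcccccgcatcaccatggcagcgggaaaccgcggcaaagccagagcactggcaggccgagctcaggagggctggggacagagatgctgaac
DIXDC1 start 2: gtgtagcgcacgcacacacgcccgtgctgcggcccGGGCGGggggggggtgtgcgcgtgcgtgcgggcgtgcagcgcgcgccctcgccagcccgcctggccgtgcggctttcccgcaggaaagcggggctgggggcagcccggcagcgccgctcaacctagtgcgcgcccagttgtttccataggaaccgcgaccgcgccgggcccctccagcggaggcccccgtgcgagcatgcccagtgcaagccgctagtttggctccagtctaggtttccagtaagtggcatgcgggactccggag
DIXDC1 start 3: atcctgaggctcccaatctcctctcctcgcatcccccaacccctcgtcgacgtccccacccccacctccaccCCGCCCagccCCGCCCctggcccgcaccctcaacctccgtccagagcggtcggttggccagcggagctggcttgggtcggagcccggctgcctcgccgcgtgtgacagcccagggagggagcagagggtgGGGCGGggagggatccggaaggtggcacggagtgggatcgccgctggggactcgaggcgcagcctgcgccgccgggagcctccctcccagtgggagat
Promoter 1 held 1 CTCF core and 2 GC boxes, promoter 2 held 1 GC box and promoter 3 held 3 GC boxes. Of 35116 promoters of this length in RefSeq, 14.4% held AGGGGGC and 45.0% held GGGCGG. The repeat GGAAGGAA, a form of the sites that EWS-FLI1 binds, was in none of the 3 and in 3.67% of all. Within that assembly starts 2 and 3 lie 10.03 kb and 50.03 kb after start 1, while in hg19 the H3K27ac anchor and another anchor lay 12.3 kb and 51.0 kb from the promoter anchor. Positions were not carried between the builds, so which start falls in which anchor is not given here.

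Depth was 682724 and 698002 PETs for STAG2-null, against 661881 and 765017 for wild-type, of which the locus took 189 and 230 against 151 and 203. Per 1000000 PETs of a library that is 277 and 330 in STAG2-null cells, against 228 and 265 in wild-type cells, so the libraries of the genotypes did not overlap, with the nearest of them at 277 and 265. With the scaling factors of the pair fit described below they did overlap. Most pairs were thin, since 210 of the 335 (62.7%) rested on 1 PET over all libraries, against 58.0% of the pairs of chromosome 11. Only 18 pairs had a PET in each of the 4 libraries. PETs in STAG2-null cells alone were found for 126 pairs (37.6%) and in wild-type cells alone for another 126 (37.6%), against 32.7% and 37.9% on chromosome 11. Of 55 possible pairs among the 11 anchors, 47 had a PET, and these took 288 of the 773 PETs.

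Only pairs with 20 or more PETs over the 4 libraries were fitted, and 5 of the 335 qualified. They held 137 PETs, or 17.7% of those at the locus. These pairs passed on their sum, so their number and direction say nothing of the other 330. Normalised PETs are PETs per 1000000 after TMM scaling, and log2 differences with their standard errors come from 1 edgeR quasi-likelihood fit over the 11872 such pairs of the genome. Of those pairs 0.219% passed the threshold of adjusted p under 0.05 in either direction and 0.0927% did so as higher in STAG2-null cells, against 0.126% as lower. At the locus 1 of the 5 passed, as higher, the pair of the promoter anchor with the H3K27ac anchor. Since this contrast chose the locus, nothing is read from that count. With STAG2-null 1 or 2 or wild-type 1 or 2 left out, 0 of the 5 passed and 2 had an unadjusted edgeR p under 0.05 each time, but such fits called at most 3 pairs of the genome as higher. With a replicate block or with scaling by 10 Mb windows 0 of the 5 passed, as in DESeq2, which called 0 pairs of the genome, and in each of these 2 of the 5 had an unadjusted p under 0.05.

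The promoter anchor and the H3K27ac anchor shared 9 and 12 PETs in STAG2-null cells, against 1 and 1 in wild-type cells. Both STAG2-null libraries stood far above both wild-type libraries. The normalised level was 14.7 ± 2.32 in STAG2-null cells, against 1.45 ± 0.108 in wild-type cells (SD, n = 2). On the log2 scale that is a difference of 3.19 ± 0.80. With 2 PETs in wild-type cells the ratio, 10.2, has an exact binomial 95% interval from 2.48 to 89.4 for counting error alone. The authors' deposited table gives this pair a log2 value of -3.23 as wild-type over STAG2-null, which ranks 16 by adjusted p among its 650 loops.

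The promoter anchor and the CTCF anchor shared 13 and 16 PETs in STAG2-null cells, against 3 and 6 in wild-type cells. The libraries of the genotypes did not overlap here either, at 20.3 ± 2.08 normalised PETs in STAG2-null, against 6.42 ± 2.60 in wild-type cells (SD over 2 libraries each). The log2 difference was 1.62 ± 0.54, with 1.28 without wild-type 1 and 2.11 without wild-type 2. It is the other pair of the locus in the authors' deposited table, at -1.65 as wild-type over STAG2-null. Groups that did not overlap, with STAG2-null higher, were found in 19.7% of all fitted pairs, and the opposite order in 20.3%.

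The remaining side of this triangle, from the CTCF anchor to the H3K27ac anchor over 5.35 kb, did not share the pattern. There were 6 and 8 PETs in STAG2-null cells, against 3 and 10 in wild-type cells, so the wild-type libraries lay on either side of the STAG2-null ones. Its log2 difference of 0.06 ± 0.58 was -0.48 without wild-type 1 and 1.07 without wild-type 2. On the other side of the promoter anchor, the pair with an anchor 6.12 kb upstream held 3 and 8 PETs in STAG2-null cells, against 8 and 6 in wild-type cells (log2 difference -0.39 ± 0.61, or 0.10 without library STAG2-null 1 and -1.19 without library STAG2-null 2). Further downstream, the anchors at 51.0 kb and 56.9 kb shared 4 and 10 PETs in STAG2-null cells, against 4 and 6 in wild-type cells (0.43 ± 0.62, or 0.89 without library STAG2-null 1 and -0.31 without library STAG2-null 2). For these 3 pairs the genotypes overlapped.

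**Figure D1:**
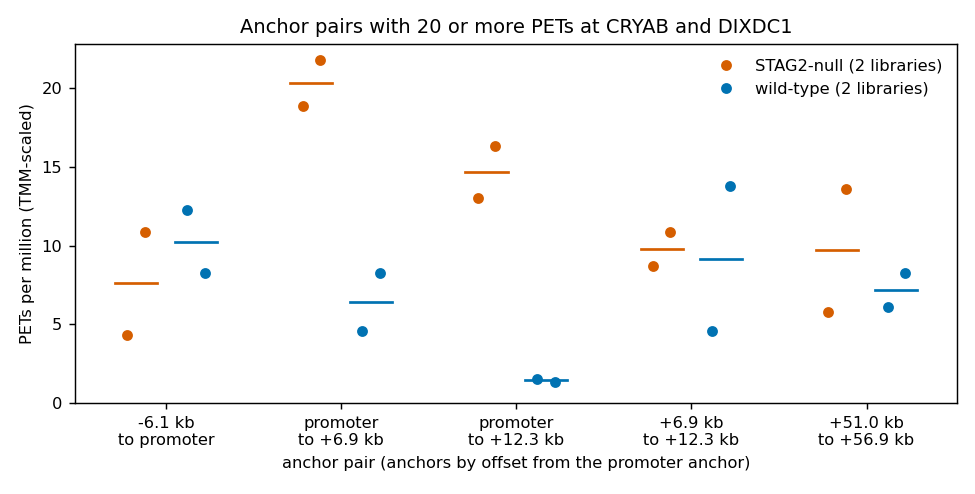
Normalised PETs (per 1000000, TMM-scaled) of the 5 anchor pairs with at least 20 PETs, 1 point per library and a bar at the mean of the 2 libraries, STAG2-null left of wild-type. The pairs of the promoter anchor with the anchors 6.94 kb and 12.3 kb downstream lie apart, at means of 20.3 against 6.42 and 14.7 against 1.45, and the other 3 overlap.

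Contact counts fall with distance, so each pair was also set against the mean of all anchor pairs of the genome within 10% of its distance, pairs with no PET included. The pair of 12.3 kb held 21 PETs in STAG2-null cells, 4.36 times the mean of 4.82 for that distance. In wild-type cells its 2 PETs were 0.434 times the mean of 4.61. The pair of 6.94 kb held 4.18 times the distance mean in STAG2-null, against 1.45 times in wild-type cells. Both pairs were picked as higher in STAG2-null cells, and that of 12.3 kb reached the minimum of PETs only through them. The contrast between genotypes against the distance means thus restates that choice. The means make no allowance for anchor width, and the promoter anchor spans 6256 bp where the median anchor spans 2342 bp.

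Of the 11 pairs with at least 10 PETs, the one that stood highest above its distance joined the promoter anchor to chr11:111955926-111958986, 161.5 kb downstream and outside the interval. There were 2 and 5 PETs in STAG2-null cells, against 6 and 1 in wild-type cells, a sum of 7 in each genotype. That is 13.2 times the distance mean in STAG2-null, against 11.8 times in wild-type cells. Those means were 0.528 and 0.592 PETs, where the pair of 12.3 kb had 4.82 and 4.61. Any pair that reaches the minimum of 10 PETs at 161.5 kb stands far above its mean, so the top rank follows from that minimum. The libraries overlapped fully, and the ratio of 0.968 has a counting interval from 0.290 to 3.23, so a difference of up to about 3-fold either way was not detectable at this depth. This pair is also among the 8 of the authors' 22680 high-confidence loops that touch the locus, 6 of which end at the promoter anchor.

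**Figure D2:**
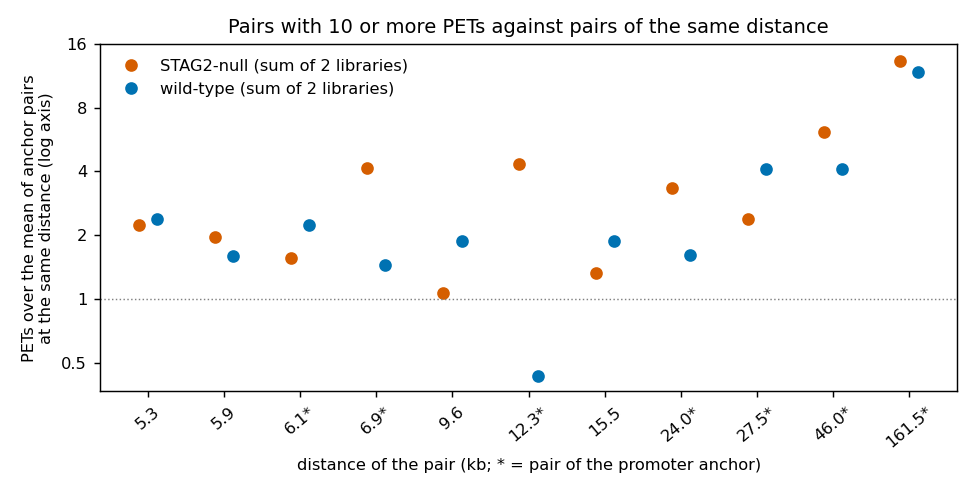
PETs of the 11 pairs with at least 10 PETs, summed over the 2 libraries of a genotype and divided by the mean of all anchor pairs at the same distance, on a log axis, with pairs in order of distance. The pair of 12.3 kb stands at 4.36 in STAG2-null, against 0.434 in wild-type cells, and that of 161.5 kb at 13.2 and 11.8.

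Upstream, toward CFAP68, FDXACB1 and ALG9, the promoter anchor had 3 more regular partners. The one at 46.0 kb (chr11:111748703-111751231) held 3 and 5 PETs in STAG2-null cells, against 4 and 2 in wild-type cells, 6.13 and 4.12 times the distance means. The one at 27.5 kb (chr11:111767456-111769438) held 2 and 3 PETs in STAG2-null cells, against 5 and 4 in wild-type cells, and is the only pair with at least 10 PETs that lay apart with STAG2-null lower. The one at 54.0 kb held 4 and 3 PETs in STAG2-null cells, against 1 and 1 in wild-type cells. Downstream, an anchor at 24.0 kb held 3 and 5 in STAG2-null cells, against 1 and 3 in wild-type cells, which lay apart after scaling by depth. Over the 11 pairs with at least 10 PETs, 3 lay apart with STAG2-null higher, 1 with STAG2-null lower, and 7 overlapped. Of the 39602 pairs of the genome with at least 10 PETs, 16.5% lay apart with STAG2-null higher and 20.6% with STAG2-null lower. Ratios of these 4 upstream and downstream pairs rest on few PETs. That of the pair at 27.5 kb, 0.538, has a counting interval from 0.142 to 1.79.

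In all, the promoter anchor had 63 partners, 31 upstream and 32 downstream, out to 1986 kb and 1982 kb. Of these, 35 rested on 1 PET, and 14 had at least 5, of which 7 held more PETs in STAG2-null, 6 fewer and 1 as many. Partners at 200 kb or more numbered 41, with at most 5 PETs each. Their sum was 16 and 21 PETs in STAG2-null cells, against 8 and 11 in wild-type cells. That sum lay apart by genotype, at 26.7 ± 4.75 against 13.3 ± 1.53 normalised PETs (SD, n = 2). The share of such sums that lie apart over the genome was not counted, so nothing is read from it.

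The 2 pairs with the CTCF and H3K27ac anchors took 31.4% and 30.8% of the promoter anchor's PETs in the STAG2-null libraries (22 of 70 and 28 of 91). In the wild-type libraries they took 8.70% and 14.3% (4 of 46 and 7 of 49). The exact 95% intervals of these shares run from 20.9% to 43.6% and from 21.5% to 41.3% in STAG2-null cells, against 2.42% to 20.8% and 5.94% to 27.2% in wild-type cells. Since the 2 pairs were picked as higher in STAG2-null cells, a larger share there follows from that choice. The intervals cover counting error only and make no allowance for it. The promoter anchor's remaining 61 pairs summed to 80.1 ± 14.2 normalised PETs in STAG2-null, against 59.4 ± 6.49 in wild-type cells (SD, n = 2). Here too they did not overlap, at 70.0 and 90.1 against 64.0 and 54.8, a ratio of 1.36 with a counting interval from 1.01 to 1.83. For such sums too, the share that lie apart over the genome was not counted. Partners upstream overlapped, at 36.5 and 50.1 in STAG2-null cells, against 39.6 and 23.5 in wild-type cells.

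**Figure D3:**
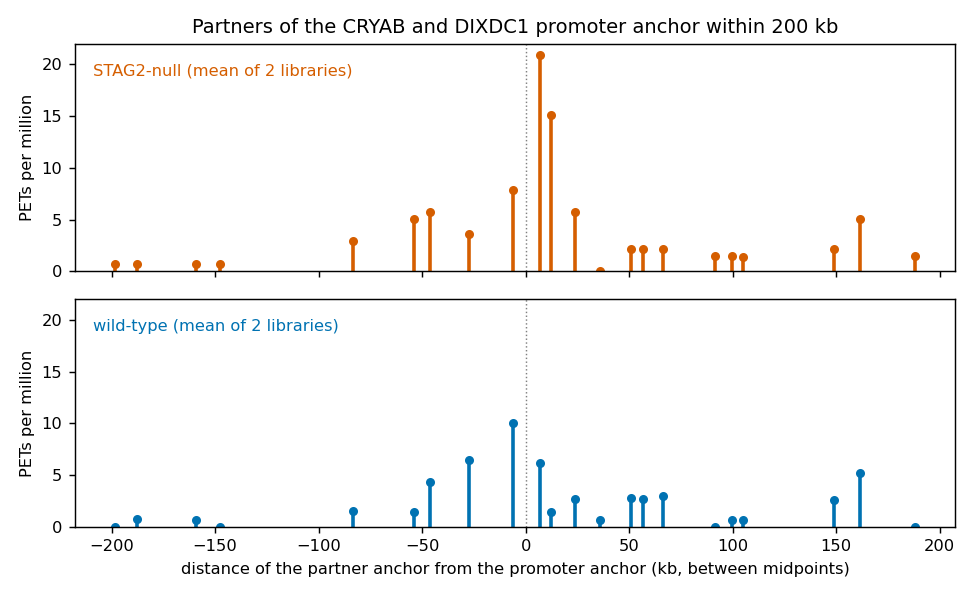
Normalised PETs (per 1000000) of each partner of the promoter anchor within 200 kb, by signed distance in kb, as the mean of 2 libraries, with STAG2-null above and wild-type below on the same scale. The 2 tallest lines in STAG2-null cells lie just downstream, while in wild-type cells the tallest lies 6.12 kb upstream and the line at 161.5 kb has a similar height in both.

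The remaining contacts of the CTCF and H3K27ac anchors overlapped between genotypes. Without its pair to the promoter anchor, the CTCF anchor summed to 33.9 ± 10.8 normalised PETs in STAG2-null, against 29.8 ± 7.67 in wild-type cells (SD, n = 2). Without its own pair to it, the H3K27ac anchor summed to 25.2 ± 6.81 against 30.3 ± 10.6. Among the 47 pairs within the locus, taking out the 2 pairs left 45 and 66 PETs in STAG2-null cells, against 55 and 61 in wild-type cells, a ratio of 0.984 with a counting interval from 0.751 to 1.29. Those 2 pairs were picked as higher in STAG2-null cells. Taking them out lowers the ratio by selection, here and in the other sums without them.

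Summed over all its pairs, the promoter anchor held 256 PETs, more than 96.0% of the anchors of the series. There were 70 and 91 PETs in STAG2-null cells, against 46 and 49 in wild-type cells, which is 116 ± 19.9 against 67.0 ± 4.34 normalised PETs (SD, n = 2; log2 difference 0.80 ± 0.21). Sums per anchor were fitted with edgeR for 60425 anchors with at least 20 PETs, of which 0.96% passed in either direction and 0.412% as higher in STAG2-null cells, against 0.548% as lower. The locus was chosen with this contrast known, and the promoter anchor's sum includes the 2 pairs picked as higher in STAG2-null cells. Nothing is therefore read from the count that follows. Of the 11 anchors of the locus, all of them fitted, 1 passed, the promoter anchor. It did not pass with STAG2-null 1 or 2 or wild-type 1 or 2 left out (log2 differences from 0.61 to 0.96), where between 2 and 28 anchors of the genome passed as higher. With scaling by 10 Mb windows the promoter anchor's log2 difference was 0.78 and it did not pass. In that setting 0 of the 60425 anchors passed in edgeR. A PET between 2 anchors of the locus counts for both.

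The other 10 anchors held between 28 and 128 PETs. Per kb of anchor the CTCF anchor ranked first at 61.0 PETs and the anchor at 36.1 kb last at 17.8, with 40.9 for the promoter anchor. Libraries lay apart with STAG2-null higher at 4 anchors, against 20.6% of all anchors fitted. These were the promoter anchor, the CTCF anchor (45.2 and 64.4 against 28.9 and 43.0 normalised PETs), the anchor at 24.0 kb (26.2 and 34.3 against 22.8 and 15.7) and the one at 36.1 kb (10.2 and 12.9 against 7.61 and 9.13). They lay apart with STAG2-null lower at 2, against 21.6% of all. These were the anchor 6.12 kb upstream (19.0 and 22.9 against 30.5 and 30.0) and the anchor at 66.5 kb (26.2 and 22.9 against 30.5 and 33.9). Log2 differences of the other 10 ran from -0.52 ± 0.36 to 0.67 ± 0.36, and the median over the 11 was 0.22, against 0.00 over all anchors fitted.

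**Figure D4:**
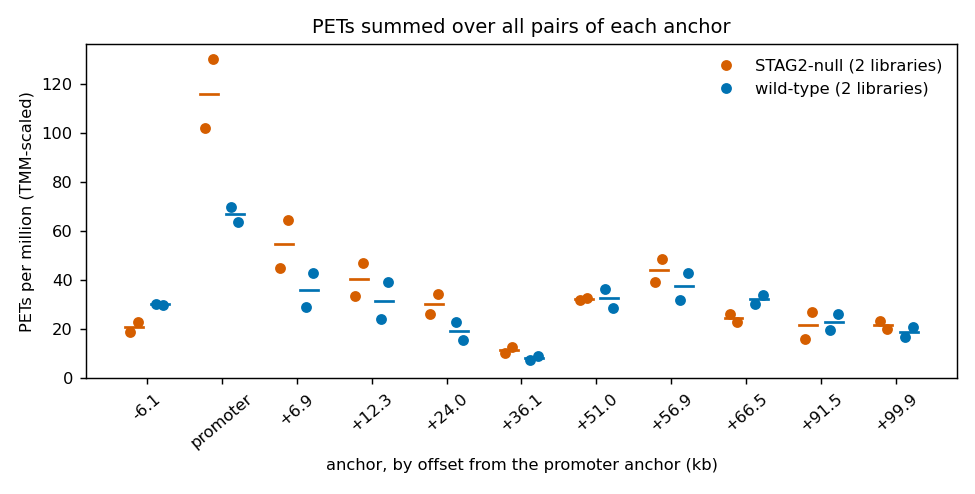
Normalised PETs (per 1000000, TMM-scaled) summed over all pairs of each of the 11 anchors, by offset from the promoter anchor in kb, 1 point per library and a bar at the mean of the 2 libraries, STAG2-null left of wild-type. The promoter anchor is highest in both genotypes, at means of 116 and 67.0.

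Another group of contacts lay further downstream, among the anchors at 51.0, 56.9 and 66.5 kb, and the 3 pairs among them overlapped between genotypes. Beside the pair of 5.87 kb given above, the anchors at 56.9 and 66.5 kb shared 3 and 3 PETs in STAG2-null cells, against 2 and 8 in wild-type cells. Those at 51.0 and 66.5 kb shared 3 and 2 against 4 and 3. The promoter anchor shared 7 PETs with each of the 3 over all libraries, 3 in STAG2-null, against 4 in wild-type cells each time. Summed over their pairs, the anchors at 51.0 and 56.9 kb had log2 differences of 0.01 ± 0.32 and 0.22 ± 0.29 and overlapped, while the anchor at 66.5 kb lay apart with STAG2-null lower (-0.39 ± 0.34).

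Outside the interval the locus reached 94 partner anchors, and 10 of them took 50.3% of those PETs. Most PETs went to the anchor 46.0 kb upstream, which contacted all 11 anchors of the locus with 8 and 17 PETs in STAG2-null cells, against 11 and 7 in wild-type cells. The anchor 161.5 kb downstream followed with 8 and 9 against 12 and 10, then the one 27.5 kb upstream with 8 and 8 against 7 and 10. In raw PETs the anchor at 161.5 kb was lower in both STAG2-null libraries, and the ranges of the other 2 overlapped. Among the 10, the one 83.4 kb upstream was higher in both (6 and 3 against 2 and 2). Those 159.0 kb and 321.7 kb upstream touched at their nearest counts, with STAG2-null otherwise higher. How often such partial sums lie apart over the genome was not counted. Of the 10, 7 lay upstream and 3 downstream of the promoter anchor, and they held 133 PETs in STAG2-null, against 111 in wild-type cells, with 6 higher, 3 lower and 1 equal in STAG2-null cells. The anchors of the interval run from 6.12 kb upstream to 99.9 kb downstream of the promoter anchor. Near downstream partners thus lie inside it, and the split by side depends on where the interval was drawn. The upstream anchor at 321.7 kb held 6 and 7 PETs in STAG2-null cells, against 1 and 6 in wild-type cells.

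In 3 pairs with at least 5 PETs, all PETs came from 1 genotype. The promoter anchor and the anchor 321.7 kb upstream shared 2 and 3 PETs in STAG2-null cells, against 0 and 0 in wild-type cells. The anchor 46.0 kb upstream showed opposite counts at the other corners of the triangle. With the CTCF anchor it shared 2 and 3 PETs in STAG2-null, against 0 and 0 in wild-type cells, and with the H3K27ac anchor 0 and 0 in STAG2-null, against 2 and 4 in wild-type cells. A sum of 0 allows up to 3 PETs per genotype, so no fold is given. These 3 pairs were singled out after their values were seen. The share of such pairs over the genome was not counted, so nothing is read from their number or direction. The farthest pair with at least 5 PETs spanned 395.4 kb, from the anchor at 56.9 kb to chr11:111456433-111458469, with 0 and 2 PETs in STAG2-null, against 1 and 2 in wild-type cells. The 97 pairs over 500 kb, out to 1998 kb, had at most 2 PETs each.

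By distance, pairs under 20 kb held 28.1 ± 3.87% of the PETs at the locus in STAG2-null, against 24.1 ± 2.19% in wild-type cells (SD, n = 2). Single libraries overlapped, at 25.4% and 30.9% against 22.5% and 25.6%, and the 95% Wilson intervals of single libraries span from 16.6% to 37.1%. On chromosome 11 the same class held 22.1 ± 0.763% in STAG2-null, against 20.1 ± 0.529% in wild-type cells. Pairs at 200 kb or more held 32.0 ± 3.41% in STAG2-null, against 31.9 ± 8.56% in wild-type cells (SD, n = 2). On chromosome 11 they held 36.9 ± 0.867% in STAG2-null, against 36.2 ± 0.603% in wild-type cells. Wild-type 1 stood apart in the class of 200 to 500 kb, with 16 PETs (10.6%) where the other libraries had 38 to 47. An exact permutation test of 2 against 2 libraries cannot give a two-sided p below 0.333, so none was run.

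**Figure D5:**
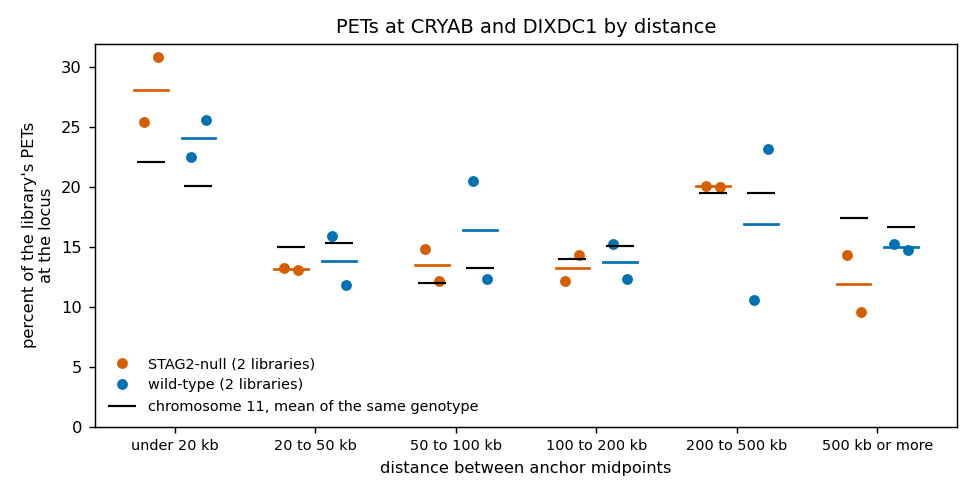
Percent of a library's PETs at the locus in 6 classes of distance, 1 point per library and a bar at the mean of the 2 libraries, STAG2-null left of wild-type, with black dashes for the mean over chromosome 11. The genotypes overlap under 20 kb, and 1 wild-type library lies low, at 10.6%, in the class of 200 to 500 kb.

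The locus as a whole held 302 ± 37.8 normalised PETs in STAG2-null, against 247 ± 24.6 in wild-type cells (SD, n = 2), which is 0.30 as a log2 ratio of shares, and 266 ± 32.2 against 240 ± 22.5 without the 2 pairs, where the libraries overlapped. The libraries of the whole locus did not overlap with the factors of the anchor fit used here, but did with those of the pair fit. The surroundings of the locus stood nearer to 0. The 10 Mb window around it stood at a log2 ratio of 0.01 and its sparse pairs, those with at most 4 PETs, at -0.04, while chromosome 11 stood at -0.08.

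Promoters of related genes could be placed for few members of the lists taken with the locus. Of 9 small heat shock protein genes CRYAB alone had a start at an anchor in the authors' deposited table, of 6 genes of DIX domain proteins DIXDC1 alone, and of 20 neighbours in 11q23.1 these 2 alone. The others were not analysed here.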

How the data were processed

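SMC1 HiChIP contacts of A673 cells were analysed in 2 STAG2-null and 2 wild-type libraries. The authors deposited, per library, a count of PETs for each anchor pair with a p-value per pair (not used here), and 2 tables over all libraries with counts, p-values and, per the file headers, distances and log2 fold changes (as wild-type over STAG2-null, from the column naming the stronger genotype). The submitters' processing notes name HiC-Pro and hg19. Per the file headers, p-values of the high-confidence loops come from mango, a loop caller, with no version or settings stated.

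Counts were joined on anchors and fitted with edgeR 4.0.16 in R 4.3.3 (TMM, library totals over all pairs, robust quasi-likelihood F test on genotype alone, Benjamini-Hochberg, at least 20 PETs), after tests on simulated data. DESeq2 1.42.0, other scalings, minimums and merged anchors, a replicate block and leaving out libraries were alternatives. Intervals used scipy 1.17.1 and cover counting error only. Any p-value here reflects library-to-library spread alone, and that can be technical. Named were the genes of the interval, all its anchors, pairs with at least 20 PETs, otherwise the 10 pairs with most PETs, the 10 outside partners with most PETs and the farthest pair with at least 5. Pairs with at least 10 PETs, pairs with PETs in 1 genotype alone and the 54.0-kb pair were added after their values were seen. The members and lists were chosen with earlier results of these data known.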

Additional observations from a re-analysis of the deposited data

How the results depend on the processing

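The pair of 12.3 kb kept its direction in every setting that gave it a value, at a log2 difference of 3.19 to 3.35 over the scalings, minimums, DESeq2 (3.35) and the replicate block (3.20), and of 3.02 to 3.34 with single libraries left out. Merging anchors within 5 kb puts the promoter, CTCF and H3K27ac anchors into 1 anchor of 21140 bp, and a minimum of 40 PETs leaves no pair of the locus, so neither gives it a value. That merged anchor, which holds contacts to other anchors only, stood at 0.21 ± 0.19.

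Calls changed more often. With 10 Mb windows scaled to their own totals, 0 of the 5 pairs and 0 of the 11 anchors passed in edgeR, and 0 of the 60425 anchors of the genome did (by unadjusted p under 0.05, 2169 were higher and 2457 lower). With merged anchors 0 of 6 pairs and 0 of 7 anchors passed. In DESeq2 0 pairs passed, as over the genome, and none of the 11 anchors received an adjusted p, so it gives no count of anchors. Among anchors of the locus, unadjusted p under 0.05 was reached by 2 with window scaling, 1 in DESeq2, 0 merged and 1 to 2 with a library left out. With at least 10 PETs, or with the replicate block, 0 pairs passed, while the promoter anchor still did. Unadjusted p under 0.05 was reached by 2 of the 5 pairs in each of these settings without merging (2 of 11 with at least 10 PETs), and by 0 of 6 merged pairs. With any 1 library left out 0 pairs and 0 anchors passed (range 0 to 0), and by p under 0.05 unadjusted 2 pairs did each time. Such fits take the spread of the lone library from the other genotype, and over the genome they called 3 pairs higher and 4 lower without STAG2-null 1, 1 each way without STAG2-null 2, and 0 without either wild-type library (unadjusted, 438 higher and 501 lower without wild-type 1, 420 and 444 without wild-type 2), so a lost call says little of this pair. Same-numbered libraries deviated together at a correlation of 0.00306 over pairs and 0.00631 over anchors, so the numbers give no pairing and the block is 1 more setting.

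The log2 ratio of the whole locus, 0.30, was 0.68 over high-confidence loops alone and 0.17 to 0.42 with single libraries left out. The difference in the share of pairs under 20 kb, 4.07 points, was 13.7 over high-confidence loops and 1.33 to 6.80 without single libraries. That of pairs at 200 kb or more, 0.0990, ran from -5.95 to 6.15, with no high-confidence loop that long. For the other 4 pairs and the 11 anchors, 157 of 164 values moved by less than the replicate spread and 7 by more, all without 1 library. The 12.3-kb pair exceeded it without STAG2-null 2 (3.02). A lost library can hardly move a value further, so such fits test no stability. Over the genome edgeR called 11 pairs higher and 15 lower in STAG2-null cells, 11 and 5 without TMM, 9 and 1 scaled by chromosome, 5 and 1 by window, 6 and 4 with at least 10 PETs, 2 and 3 merged, and DESeq2 called 0 (57 and 84 unadjusted). Scaling by chromosome or window set the median of all fitted pairs at 0.11 or 0.12, against -0.04.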
